A study of Mus musculus with 12 samples.

Results

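Nf1 and 8 further genes that act on or answer to RAS signalling were examined in conditionally immortalized mouse granulocyte-monocyte progenitors (GMPs) with and without Tafazzin. The 9 genes were chosen by symbol, with results of these data already known, from 37583 gene identifiers counted in every clone. They comprise the RAS GTPase-activating protein (GAP) genes Nf1, Rasa1, Rasa2 and Rasa3, the SPRED genes Spred1 and Spred2, the RAS genes Nras and Hras, and the ERK phosphatase gene Dusp6. All 9 passed the filter on low counts. Another 103 genes of the RAS-ERK pathway and of the Nf1 neighbourhood were taken by role for comparison.

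RAS proteins are small GTPases that signal while bound to GTP. Exchange factors such as SOS load them with GTP after a receptor is engaged, here KIT, the receptor for stem cell factor, and GAPs end the signal by speeding GTP hydrolysis. Neurofibromin, the product of Nf1, is a RAS GAP that SPRED proteins bring to the membrane, and its loss in myeloid progenitors is a known cause of myeloproliferative disease. GTP-bound RAS activates the kinases RAF, MEK and ERK in turn. DUSP6 removes the activating phosphates from ERK, and its gene is itself induced by ERK activity. RNA was measured here, and not protein, RAS-GTP or phosphorylated ERK.

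Progenitors were from fetal liver of C57BL/6 mice at embryonic day 15.5. All clones of both genotypes carry retroviral ER-Hoxb8, an estrogen-regulated form of the transcription factor Hoxb8 that holds progenitors in a dividing, immature state, and all were grown in stem cell factor (about 50 ng/ml) with 0.5 uM estradiol. There were 6 wildtype clones (1A, 1B, 1C, 2D, 2E, 2F) and 6 Taz knockout clones (3G, 3H and 3I with number 3, and 4J, 4K and 4L with number 4). Taz encodes Tafazzin, which remodels the mitochondrial lipid cardiolipin. Each clone was grown from 1 cell, so a difference may belong to a clone. What the number before the clone letter stands for is not in the labels. Clones that share it may share an embryo or a parent line, and p-values over 12 clones are then too small.

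Total gene counts ran from 18970252 to 27431544 per clone, and levels are given as CPM, counts scaled to library size, after TMM scaling. Taz was at 39.2 ± 2.58 CPM (SD, n = 6) in wildtype and 3.35 ± 0.685 CPM (SD, n = 6) in knockout clones, with no overlap. All 11 GMP marker genes were detected in every clone, and edgeR called 0 of them between genotypes. Their levels were uneven, with Kit between 516 and 863 CPM and Elane between 2.25 and 827 CPM. The ratio of knockout to wildtype means was 0.24 for Elane, 0.41 for Cebpe, 0.62 for Prtn3 and 0.90 for Ms4a3. For the rest of the list it lay between 0.97 (Ctsg) and 1.21 (Fcgr3). Clone 3G stood apart in holding 123 CPM of the liver gene Alb, and the summed level of 5 hepatocyte markers was 170 CPM there against 2.51 to 22.6 CPM in the other clones. Clone 2D stood apart in the summed level of 10 mature neutrophil markers, 1538 CPM against 15.9 to 145 CPM in the others. Of these 10 genes 7 were tested and 1, Cxcr2, was called lower in knockout clones, beside 3.94% over all genes tested. The summed level of 9 lymphoid markers was 33.0 to 86.4 CPM in wildtype and 6.38 to 28.7 CPM in knockout clones. Of these 9 genes 6 were tested and 2 called lower, beside 3.94% over all genes tested. They were Igll1 and Cd79b of B-cell precursors. These 2 genes, Cxcr2 and the GMP genes given with a ratio are named after their values were seen. The part of these cell types in the results was not tested, beyond the values given without clone 3G. In cells measured in bulk, fewer cells of a type and less RNA per cell cannot be told apart.

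Promoter windows are shown for Nf1 and Spred2, the members called higher in knockout clones, and for the GAP gene Rasa1, whose levels overlapped between genotypes. The windows are the 250 bases before the RefSeq start site (build GRCm38.p6), 5′ to 3′ on the gene's strand. Capitals mark matches, on either strand, to the ETS site CCGGAAGT and to the cAMP-response core TGACG. The windows are chr11:79339642-79339891 on the plus strand for Nf1, chr11:19924192-19924441 on the plus strand for Spred2 and chr13:85289487-85289736 on the minus strand for Rasa1.
Nf1: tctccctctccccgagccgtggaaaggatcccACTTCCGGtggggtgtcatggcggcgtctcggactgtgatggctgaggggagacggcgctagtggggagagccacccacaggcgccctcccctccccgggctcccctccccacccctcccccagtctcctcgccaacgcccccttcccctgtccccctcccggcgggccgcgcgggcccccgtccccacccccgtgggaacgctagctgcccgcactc
Spred2: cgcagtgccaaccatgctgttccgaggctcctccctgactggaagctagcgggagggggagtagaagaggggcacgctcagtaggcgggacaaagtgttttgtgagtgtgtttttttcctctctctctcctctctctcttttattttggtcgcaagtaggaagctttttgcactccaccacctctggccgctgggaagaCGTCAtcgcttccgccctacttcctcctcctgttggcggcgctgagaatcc
Rasa1: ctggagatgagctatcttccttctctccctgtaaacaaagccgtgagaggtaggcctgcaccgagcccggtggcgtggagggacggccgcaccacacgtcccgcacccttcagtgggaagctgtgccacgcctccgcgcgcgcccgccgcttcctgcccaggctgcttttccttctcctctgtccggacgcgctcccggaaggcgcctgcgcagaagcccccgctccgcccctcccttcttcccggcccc

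Nf1 held a match to the ETS site, 218 bases before its start site, and no other window of the 9 did. Over 32536 promoter windows of the same length, 2.90% held this motif. The TGACG core was found in the windows of Spred2 and Hras and in 17.9% of all windows. The whole palindrome TGACGTCA, which contains that core, was in none of the 9 windows and in 1.56% of all. The stress-response composite TGATGNAAN was in none of the 9 and in 3.38% of all. The GC box GGGCGG was in 7 of the 9 windows, Nf1 and Dusp6 excepted, and in 33.0% of all. The E-box CACGTG was found in Nras only among the 9 and in 6.04% of all windows. These are matches of letters in 1 window per gene, and both strands were searched for each motif.

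Nf1 was the member with the greatest difference between genotypes. Its level was 56.5, 54.4, 50.5, 58.3, 52.0 and 60.4 CPM in wildtype clones 1A, 1B, 1C, 2D, 2E and 2F. In knockout clones it was 107 CPM in 3G, 102 in 3H, 155 in 3I, 144 in 4J, 101 in 4K and 112 in 4L. The lowest knockout clone lay far above the highest wildtype clone, and clones 3I and 4J were the highest of all 12. The means were 55.3 ± 3.76 CPM (SD, n = 6) and 120 ± 23.3 CPM (SD, n = 6), a ratio of 2.17 and a log2 fold change of 1.12 (SE 0.11). Nf1 counts were 1107 to 1497 per wildtype clone and 2012 to 3657 per knockout clone. Without clone 3G the log2 fold change was 1.15, and it stayed between 1.03 and 1.17 when each clone was left out in turn. The direction of Nf1 was part of how the genes were chosen, so no test of it is given.

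**Figure D1:**
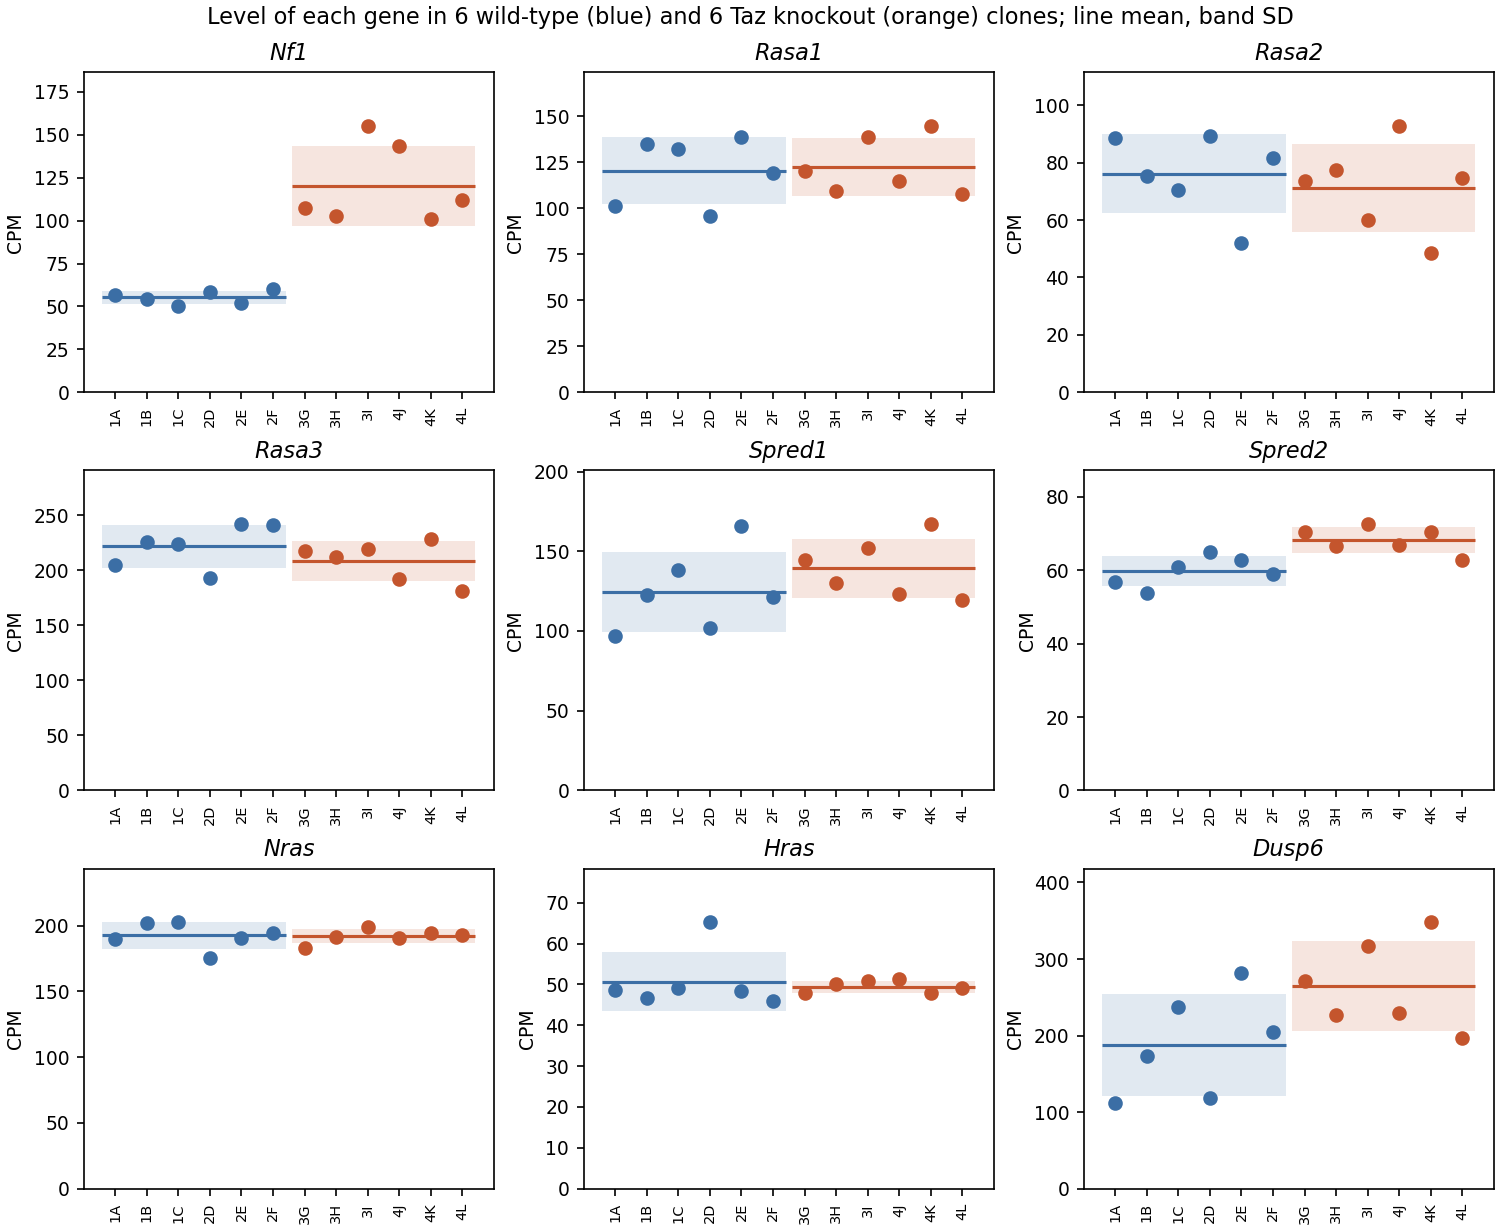
Level of each of the 9 genes in CPM after TMM scaling (vertical axis, from 0) in each clone (horizontal axis). Blue points are the 6 wildtype clones and orange points the 6 knockout clones, the line is the mean and the band is 1 SD on either side. Nf1 is the panel in which the genotypes do not overlap (50.5 to 60.4 CPM against 101 to 155 CPM).

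Nf1 also varied more among knockout than among wildtype clones. The coefficient of variation was 19.3% in knockout and 6.79% in wildtype clones. The counting error at the mean Nf1 count over all 12 clones was 2.25%. The knockout values fell into 3I and 4J at 144 CPM or more and the other 4 clones at 112 CPM or less, and each title number held 1 of the high clones. The mean was 122 ± 29.3 CPM (SD, n = 3) in clones numbered 3 and 119 ± 22.2 CPM (SD, n = 3) in clones numbered 4. The difference of number 4 minus 3 was -0.03 on the log2 scale (SE 0.17, unadjusted p = 0.845 in edgeR's quasi-likelihood test over all genes, adjusted p = 1.00). In wildtype, number 2 minus 1 was 0.08 (SE 0.17, unadjusted p = 0.648, adjusted p = 1.00, same edgeR test). Against these, the knockout-minus-wildtype values by pair of numbers were 1.18 for 3 minus 1, 1.10 for 3 minus 2, 1.14 for 4 minus 1 and 1.06 for 4 minus 2. The 4 pairs share clones.

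Nf1 lies on chromosome 11 and was counted without regard to strand. In the GENCODE M21 annotation 7 genes sit inside its introns on the opposite strand, among them Omg, Evi2a and Evi2b, and they share 0 exon bases with it. Evi2a, a gene expressed in blood cells, was at 19.4 ± 4.00 CPM (SD, n = 6) in wildtype and 22.1 ± 1.63 CPM (SD, n = 6) in knockout clones, with a log2 fold change of 0.19 (SE 0.13, edgeR adjusted p = 0.416). Omg did not pass the filter on low counts and had at most 0.258 CPM in any clone. Among 8 tested genes in and beside the locus, edgeR and DESeq2 called 0, and the unadjusted p was under 0.05 for 1. That gene, Atad5, which acts in DNA replication, differed by -0.12 on the log2 scale (edgeR adjusted p = 0.200). Of the 50-base words in Nf1 transcripts, 0.0684% also occurred in another gene.

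The other 3 GAP genes of the 9 had overlapping levels in the genotypes. Rasa1, which binds activated receptors through its SH2 domains, was at 95.9 to 139 CPM in wildtype (median 126) and 108 to 145 CPM in knockout clones (median 117), a log2 fold change of 0.03 (SE 0.11). Rasa2, a membrane-associated RAS GAP, was at 52.0 to 89.1 CPM (median 78.5) and 48.5 to 92.9 CPM (median 74.1), a log2 fold change of -0.10 (SE 0.16). Rasa3, which acts on both RAS and RAP1, was at 193 to 242 CPM (median 225) and 181 to 228 CPM (median 215), a log2 fold change of -0.09 (SE 0.07). The sign for Rasa1 turned when single clones were left out, with values from -0.03 to 0.07.

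Per kilobase of exon, which allows genes to be set roughly side by side, the 4 GAP genes differed widely in level. The length is that of all annotated exons of a gene together (GENCODE M21), and not of the transcripts expressed. Ranks between genes, and the shares given below, depend on that choice. Rasa3 had the highest wildtype level at 43.5 ± 3.87 CPM per kilobase (SD, n = 6), followed by Rasa1 at 16.5 ± 2.48. Rasa2 at 4.81 ± 0.878 and Nf1 at 3.49 ± 0.237 were the lowest, and their wildtype ranges overlapped. In knockout clones Nf1 was at 7.59 ± 1.47 CPM per kilobase and Rasa2 at 4.49 ± 0.965, and every knockout clone had more Nf1 than any had of Rasa2. Rasa3 and Rasa1 remained first and second, at 40.9 ± 3.56 and 16.7 ± 2.15.

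Of the 5 other GAP genes tested, 1 was called higher and 0 lower, beside 3.99% higher and 3.94% lower over all genes tested. Dab2ip, a GAP and scaffold protein, rose from 62.9 ± 11.7 CPM (SD, n = 6) to 94.1 ± 14.9 CPM (SD, n = 6), a log2 fold change of 0.58 (SE 0.13, edgeR adjusted p = 0.0226). Knockout clones had 73.3 to 117 CPM and wildtype clones 47.7 to 79.7 CPM, and the groups overlapped through clones 4L and 2E. Without clone 3G the value was 0.60 (adjusted p = 0.0398), and without 3I it was 0.51 and no longer called (adjusted p = 0.0503). Dab2ip shares 347 exon bases (4.15% of its exon length) with Gm13446 on the other strand, so reads from the pair cannot be fully told apart. Rasal3, a GAP of blood cells, was at 62.6 ± 5.28 and 67.0 ± 11.6 CPM (log2 0.10, adjusted p = 0.622). Rasal2 was near the detection limit and its sign turned without clone 3G, from 1.06 to -0.08.

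Expressed as a share of the summed CPM per kilobase of the 9 tested GAP genes, Nf1 took 3.94% ± 0.525 (SD, n = 6) in wildtype and 7.97% ± 1.39 (SD, n = 6) in knockout clones. The ranges, 3.38% to 4.71% and 6.10% to 9.57%, did not overlap. Dab2ip took 8.37% ± 0.975 and 11.7% ± 0.879, and its ranges did not overlap either (7.00% to 9.81% and 10.6% to 13.3%). Rasa3 took the greatest share in both, 48.8% ± 0.939 in wildtype and 43.0% ± 2.36 in knockout clones, while its own level differed by -0.09 on the log2 scale. The share of Rasa3 also had no overlap, at 47.5% to 50.1% in wildtype and 39.7% to 45.6% in knockout clones. The summed level was 89.3 ± 7.72 and 95.4 ± 8.54 CPM per kilobase, and its ranges overlapped. A share of RNA says nothing of the activity of each protein.

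**Figure D2:**
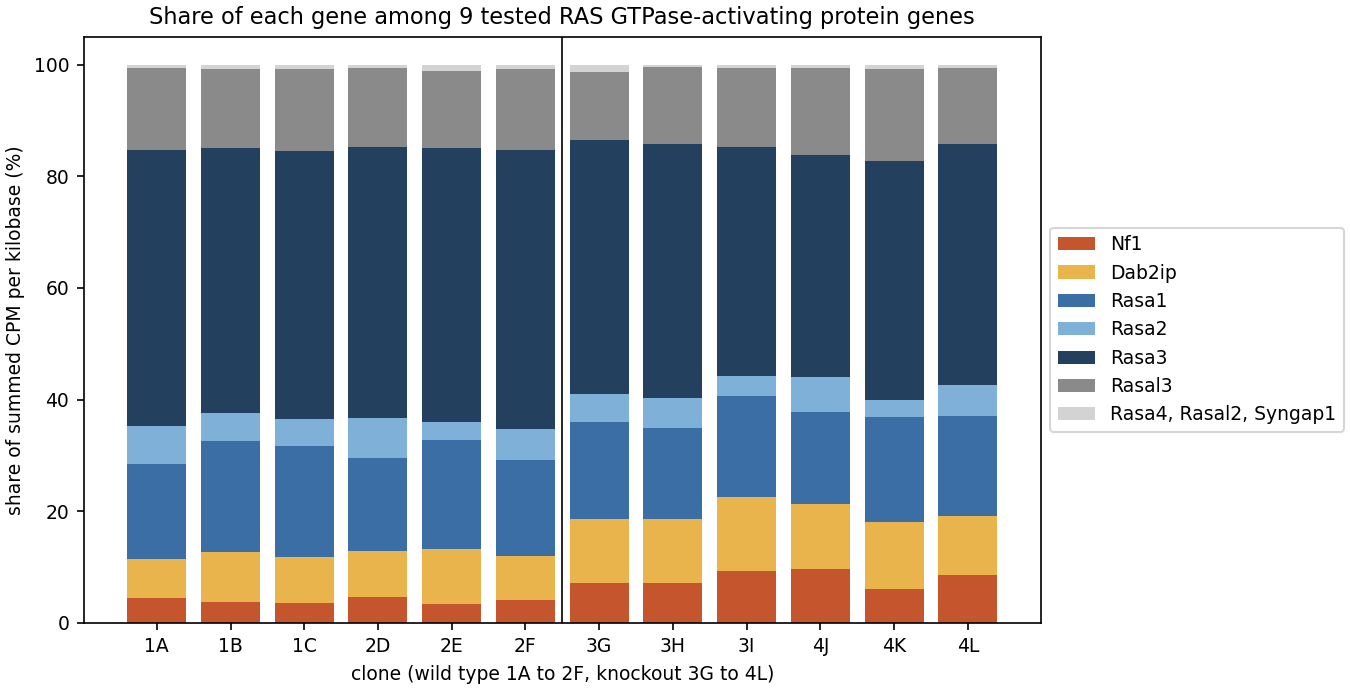
Share of each gene in the summed CPM per kilobase of 9 tested RAS GAP genes (vertical axis, percent) in each clone (horizontal axis), with wildtype clones left of the line and knockout clones right of it. The lowest segment is Nf1, at 3.38% to 4.71% in wildtype and 6.10% to 9.57% in knockout clones.

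The SPRED genes were both measured at moderate levels. Spred2 was at 56.7, 53.8, 61.0, 65.0, 62.9 and 58.9 CPM in wildtype clones 1A to 2F and at 70.4, 66.7, 72.7, 66.9, 70.3 and 62.9 CPM in knockout clones 3G to 4L. The groups overlapped only through 4L, the lowest knockout clone, and 2D, the highest wildtype clone. Its means were 59.7 ± 4.09 CPM (SD, n = 6) and 68.3 ± 3.50 CPM (SD, n = 6), a ratio of 1.14 and a log2 fold change of 0.19 (SE 0.051). Without clone 3G the fold change was 0.19 and no longer called, and the call was lost for 9 of the 12 clones when each was left out. Spred1 was at 97.1 to 166 CPM (median 122) in wildtype and 119 to 167 CPM (median 137) in knockout clones, a log2 fold change of 0.16 (SE 0.13). Clones 1A and 2D were the lowest of all for Spred1 and 4K and 2E the highest. Of 4 other SPRED and Sprouty genes, which encode feedback inhibitors of receptor signalling to RAS, edgeR and DESeq2 called 0, and the unadjusted p was under 0.05 for 0. Spry4 had the greatest fold change among them, 0.61 (SE 0.30, edgeR adjusted p = 0.246).

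The RAS genes themselves had near-equal levels in the genotypes. Nras was at 176 to 203 CPM (median 192) in wildtype and 183 to 199 CPM (median 192) in knockout clones, with means of 193 ± 9.98 and 192 ± 5.26 CPM (SD, n = 6 each). Its log2 fold change of -0.00 (SE 0.036) was the smallest of the 9, and so was its spread in each genotype (coefficients of variation 5.18% and 2.74%). Hras was at 46.0 to 65.3 CPM (median 48.5) and 47.8 to 51.3 CPM (median 49.6), a log2 fold change of -0.03 (SE 0.08). Clone 2D, at 65.3 CPM, was the only wildtype clone above 49.1 CPM for Hras, and without it the value turned to 0.05. Per kilobase, Nras at 36.1 ± 1.87 CPM lay above Hras at 13.6 ± 1.95 CPM in wildtype clones (SD, n = 6 each), and their ranges did not overlap.

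Among 10 other RAS family GTPase genes, 1 was called higher and 1 lower, both at low levels. Over all genes tested 3.99% were called higher and 3.94% lower. Rras2, which encodes the RAS-like protein TC21, rose from 0.714 ± 0.543 CPM (SD, n = 6) to 4.51 ± 3.34 CPM (SD, n = 6), a log2 fold change of 2.65 (SE 0.63, edgeR adjusted p = 0.0257). The knockout clones ranged from 1.06 CPM in 4L to 9.18 CPM in 3I, and clones 4J and 4L lay below wildtype clone 2E at 1.73 CPM. The call was lost without 1A, 1B, 1C, 2F, 3H, 3I or 4K, in limma voom and in counts summed by title number, while the fold change stayed at 2.31 or more. Rras, which encodes R-Ras, a regulator of integrin adhesion, fell from 2.60 ± 0.370 CPM (SD, n = 6) to 1.34 ± 0.402 CPM (SD, n = 6), a log2 fold change of -0.96 (SE 0.21, edgeR adjusted p = 0.0167). Its groups did not overlap, and the call was lost in counts summed by title number (adjusted p = 0.0969).

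Dusp6 varied most among clones. It was at 112, 173, 237, 118, 282 and 205 CPM in wildtype clones 1A to 2F and at 271, 226, 317, 230, 348 and 197 CPM in knockout clones 3G to 4L. Wildtype clones 1A and 2D were the lowest, and wildtype clone 2E was above 4 of the 6 knockout clones. The means were 188 ± 67.2 CPM (SD, n = 6) and 265 ± 58.5 CPM (SD, n = 6), a log2 fold change of 0.50 (SE 0.23) that was not called in any setting tried and ranged from 0.38 to 0.65 when clones were left out. Its coefficient of variation was 35.8% in wildtype and 22.1% in knockout clones, against a counting error of 1.39%. Clones 1A and 2D also held the most Elane, a primary granule gene and 1 of the 11 GMP markers, at 372 and 827 CPM, against 2.25 to 147 CPM in the other 10. Prtn3 and Cebpe of that list were likewise highest in both clones. Kit went the other way, at 599 and 516 CPM against 643 to 863 CPM elsewhere, and Cd34 and Cebpa were also lowest in both. The rest of the list had neither order. The same clones had the lowest summed levels of 7 mast cell and basophil markers, 1579 and 1184 CPM, against 2224 to 5037 CPM elsewhere. The part of these differences in the Dusp6 values was not tested.

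Counted together, 2 of the 9 genes, Nf1 and Spred2, were called higher and 0 lower at an adjusted p under 0.05, and 1 of the 9, Nf1, had no overlap between genotypes. Of all 11819 genes tested, edgeR called 7.94% in either direction (3.99% higher) and DESeq2, of the genes it gave an adjusted p, 14.0%, and 5.38% had no overlap (2.54% higher). The genes were chosen with this contrast known, so the counts are a description. The median log2 fold change of the 9 was 0.03 and that of all genes tested was -0.01. By fold change Nf1 was number 61 of the 472 genes called higher. With each clone left out in turn, Spred2 was called 3 times and Nf1 12 times.

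**Figure D3:**
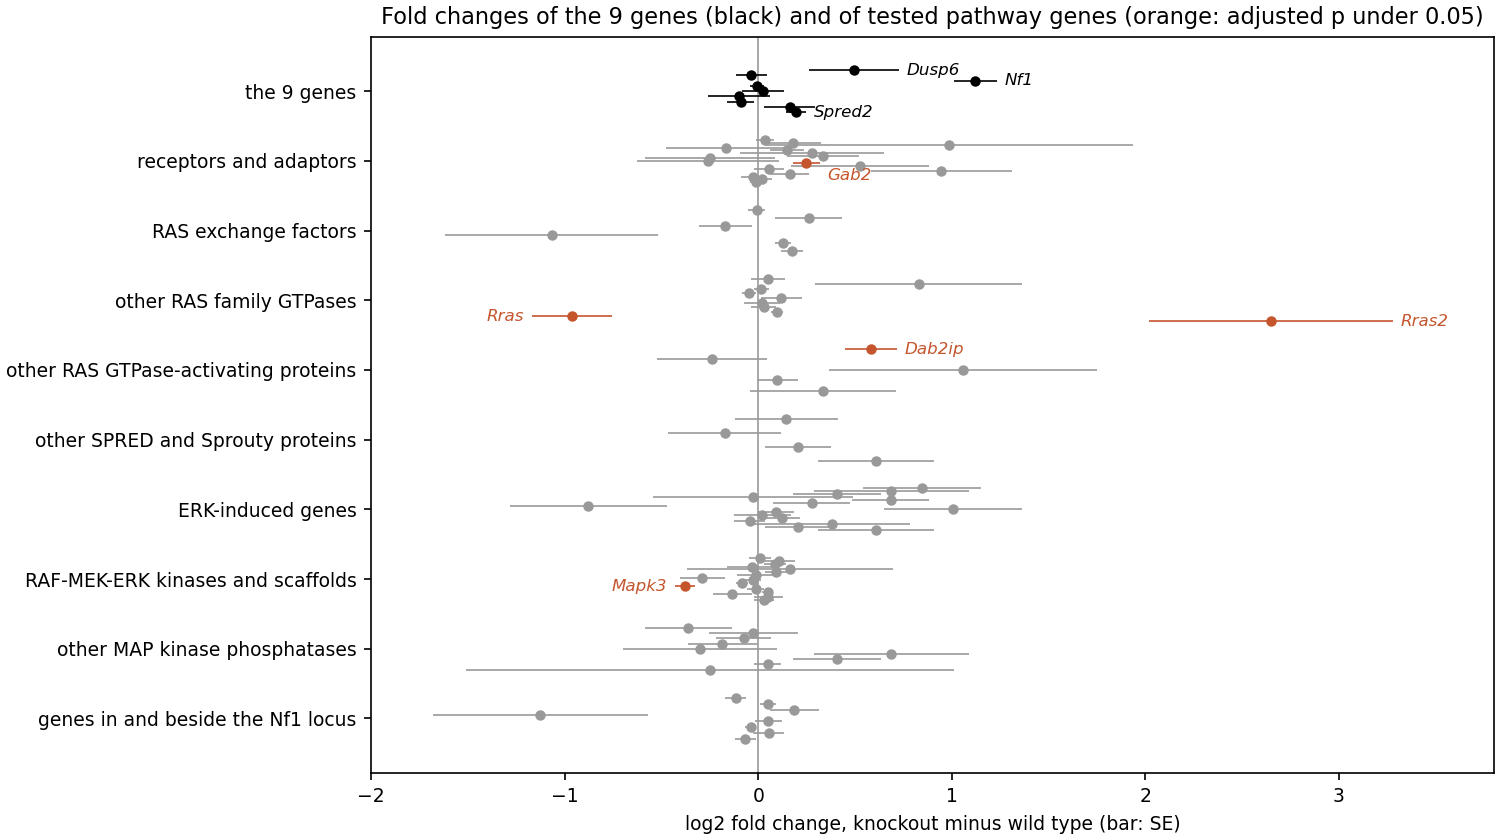
Log2 fold change of knockout minus wildtype (horizontal axis, bars are 1 SE) for the 9 genes in black and for 86 tested pathway and neighbouring genes by role, orange where the edgeR adjusted p was under 0.05. Nf1 at 1.12 lies apart from the other 8 genes. Of the 86 genes 5 are orange, beside 7.94% called over all genes tested. A gene that belongs to more than 1 role is drawn in each.

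Differences between clones of 1 genotype were not used to choose the genes and could be tested. Clones numbered 2 and 1 in wildtype did not differ past the threshold for any of the 9 genes, nor did clones numbered 4 and 3 in knockout. Over all genes, edgeR called 0% in both contrasts, and 3.52% and 2.06% had an unadjusted p under 0.05, while DESeq2 called 5 and 5 genes. Spred2 had the smallest unadjusted p of the 9, with 57.2 ± 3.60 CPM (SD, n = 3) in number 1 and 62.3 ± 3.07 CPM (SD, n = 3) in number 2 (log2 0.12, SE 0.066, unadjusted p = 0.0897, adjusted p = 1.00 in edgeR). Nras was next, at 198 ± 7.30 and 187 ± 9.76 CPM (log2 -0.09, SE 0.049, unadjusted p = 0.110, adjusted p = 1.00). By pair of numbers, Spred2 differed by 0.29, 0.17, 0.22 and 0.10 (3 minus 1, 3 minus 2, 4 minus 1, 4 minus 2). Dusp6 differed by 0.64, 0.43, 0.57 and 0.36 in the same order with an SE of 0.35 for each.

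Pairs of the 9 genes were compared from clone to clone within each genotype, and none of the 72 relations had an adjusted p under 0.05. Over the 6 wildtype clones Spred1 and Dusp6 had Pearson's r = 0.966 (exact permutation p = 0.00278, adjusted p = 0.05) and Spearman's rho = 0.943 (exact p = 0.0167, adjusted p = 0.133). Over the 6 knockout clones they had r = 0.979 (exact permutation p = 0.00278, adjusted p = 0.05) and rho = 0.943 (exact p = 0.0167, adjusted p = 0.133). Leaving out the 2 clones farthest from the median of the first-named gene, here Spred1, gave r = 0.959 and 0.947 over the 4 clones left. Every value below without the 2 farthest clones follows the same rule, in which the second gene plays no part. Rasa1 and Dusp6 in knockout clones had r = 0.975 (exact permutation p = 0.00139, adjusted p = 0.05) and rho = 1.00 (exact p = 0.00278, adjusted p = 0.100), and r = 0.929 without the 2 farthest clones. In wildtype clones this pair had r = 0.889 (exact permutation p = 0.0306, adjusted p = 0.147) and rho = 0.771 (exact p = 0.103, adjusted p = 0.285), and r = 0.346 without the 2 farthest. Those are 1A and 2D, the lowest for Rasa1, and leaving them out narrows its range. The fall in r therefore cannot show what the relation rested on. Rasa2 and Spred1 in wildtype clones had r = -0.957 (exact permutation p = 0.00278, adjusted p = 0.05) and rho = -0.943 (exact p = 0.0167, adjusted p = 0.133). In knockout clones this pair had r = -0.879 (exact permutation p = 0.0181, adjusted p = 0.144) and rho = -0.829 (exact p = 0.0583, adjusted p = 0.262). Without the 2 farthest clones r was -0.944 in wildtype and -0.711 in knockout. Of the 72 relations 4 stood at an adjusted p of 0.05 for r, and the smallest exact p possible is 0.00139 for r and 0.00278 for rho. The clones differ also in the granulocyte and mast cell markers above, whose part in these relations was not tested. For Nf1 and Dusp6 in wildtype clones r was -0.571 (exact permutation p = 0.250, adjusted p = 0.500) and rho -0.543 (exact p = 0.297, adjusted p = 0.549), and r was -0.948 without the 2 farthest clones. In knockout clones r was 0.0738 (exact permutation p = 0.885, adjusted p = 0.897) and rho -0.143 (exact p = 0.803, adjusted p = 0.85), and r was -0.712 without the 2 farthest.

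Genes known to be induced by ERK activity were examined beside Dusp6. Of 15 tested, edgeR called 0 in either direction (3 at an unadjusted p under 0.05), and DESeq2 called 2, both higher. The median log2 fold change was 0.28, with 12 above 0 and 3 below, beside -0.01 over all genes tested. Etv4, an ETS factor gene, was at 14.4 to 31.4 CPM in wildtype and 28.2 to 46.2 CPM in knockout clones (log2 0.68, SE 0.20, edgeR adjusted p = 0.0577, DESeq2 adjusted p = 0.0108). Ccnd1, the cyclin D1 gene, was at 16.5 to 39.2 and 24.0 to 77.1 CPM (log2 0.85, SE 0.30, edgeR adjusted p = 0.110, DESeq2 adjusted p = 0.0366). Fosl1 was barely detected, at 0.612 ± 0.308 and 1.24 ± 0.273 CPM (SD, n = 6 each, log2 1.00, edgeR adjusted p = 0.107). Fos, an immediate early gene, went the other way at 5.21 ± 2.78 and 2.84 ± 1.47 CPM (log2 -0.88, SE 0.40, edgeR adjusted p = 0.212). Wildtype clones 1A and 2D, the lowest for Dusp6, were also the lowest for the phosphatase gene Dusp4, at 12.9 and 9.53 CPM against 21.2 to 68.2 CPM in the others. Dusp4 was the only gene of the 15 with this order, and Myc was highest of all in 2D, at 561 CPM.

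**Figure D4:**
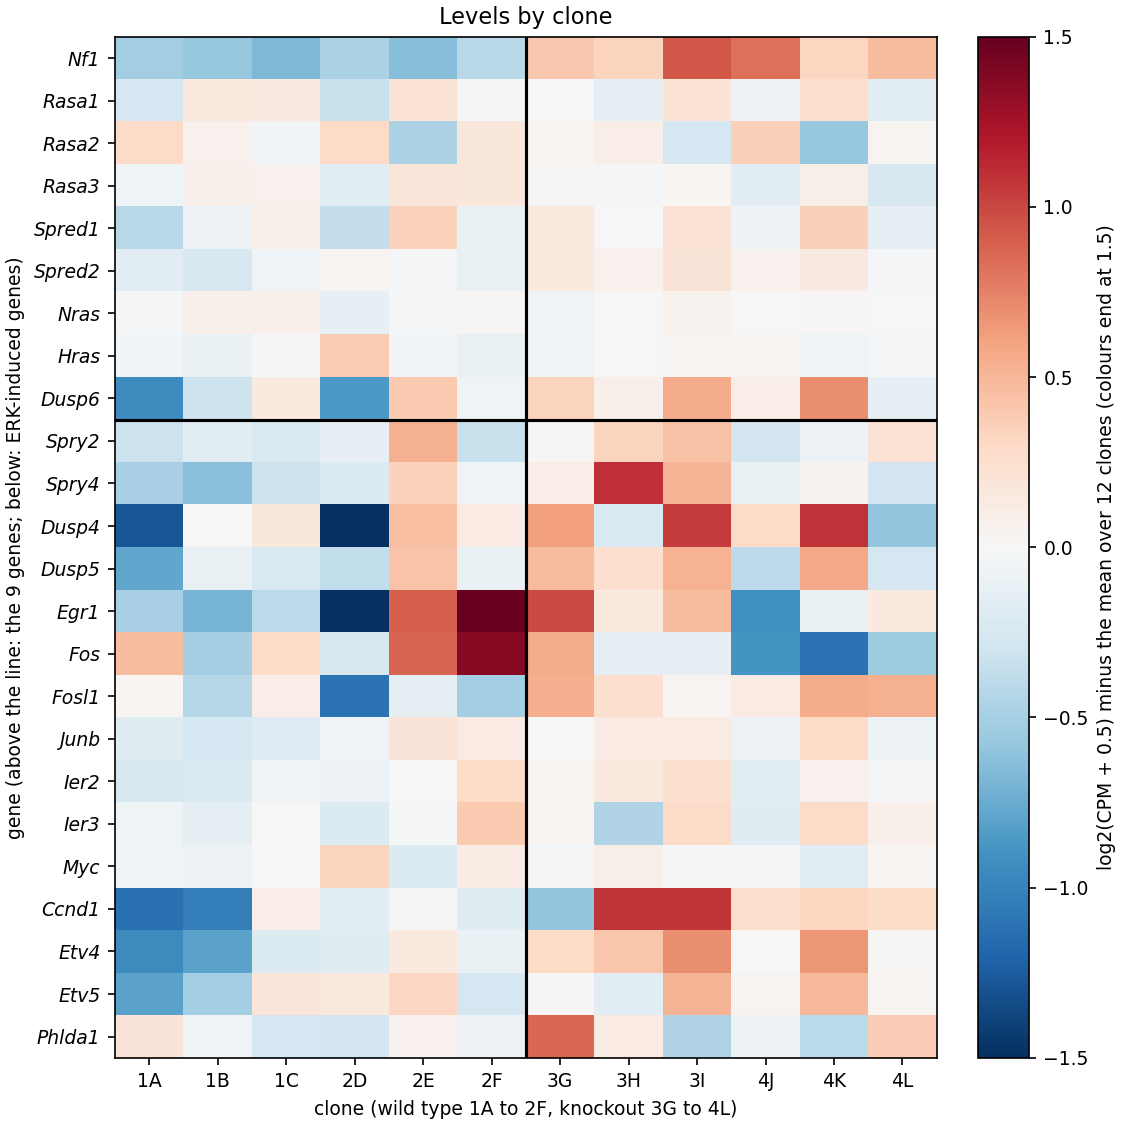
Level of the 9 genes (above the line) and of 15 tested ERK-induced genes (below it) in each clone, as log2(CPM + 0.5) minus the mean over 12 clones, with colours ending at 1.5 in either direction. Nf1 changes colour at the vertical line between genotypes, while Dusp6 is pale or blue in some clones of each genotype and lowest in 1A and 2D.

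Of 9 other MAP kinase phosphatase genes tested, edgeR and DESeq2 called 0, and the unadjusted p was under 0.05 for 0. Among 16 RAF-MEK-ERK kinase and scaffold genes 1 was called, and it was lower, beside 7.94% called in either direction over all genes tested. Mapk3, which encodes ERK1, fell from 86.0 ± 7.12 CPM (SD, n = 6) to 66.2 ± 1.77 CPM (SD, n = 6), a log2 fold change of -0.38 (SE 0.052, edgeR adjusted p = 0.00148). Every knockout clone (63.0 to 67.6 CPM) lay below every wildtype clone (75.5 to 95.1 CPM), and without clone 3G the value was -0.38 (adjusted p = 0.00503). Map2k1, which encodes MEK1, had a log2 fold change of -0.29 (SE 0.12, edgeR adjusted p = 0.162).

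Upstream of RAS, 1 of 17 receptor and adaptor genes was called, beside 7.94% in either direction over all genes tested. Gab2, an adaptor that couples cytokine receptors to RAS and PI3 kinase, rose from 72.7 ± 7.07 CPM to 86.4 ± 6.49 CPM (SD, n = 6 each), a log2 fold change of 0.25 (SE 0.070, edgeR adjusted p = 0.0492). The call was lost for 10 of the 12 clones when each was left out, and without 3G its adjusted p was 0.0872. Kit had a log2 fold change of 0.16 (SE 0.10, edgeR adjusted p = 0.363). Of 6 exchange factor genes, edgeR called 0 (2 at an unadjusted p under 0.05) and DESeq2 called 2, both higher. These were Sos1 (log2 0.13, SE 0.041, edgeR adjusted p = 0.0751) and Sos2 (log2 0.18, SE 0.057, edgeR adjusted p = 0.0845), which encode the main RAS activators downstream of receptors. Over all 86 distinct pathway and neighbouring genes tested, 3 were called higher and 2 lower, and the median log2 fold change was 0.05. Over all 11819 genes tested edgeR called 3.99% higher and 3.94% lower, so the counts by role are not read as a pathway result.

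The 5 genes whose profile over the 12 clones came closest to that of Nf1 were found by the root mean square difference of centred log2 CPM, over 9559 genes whose mean log2 CPM reached 2. Ciart, a circadian repressor gene, had a difference of 0.153, beside 0.580 for a flat profile. Psph, which encodes the last enzyme of serine synthesis, followed at 0.195, Gpr141, an orphan receptor gene, at 0.203, Ifrd1, a transcriptional coregulator gene, at 0.204, and Cd82, a tetraspanin gene, at 0.222. The likeness is mainly the step between genotypes, since all 5 had no overlap, with log2 fold changes from 0.78 for Cd82 to 1.26 for Psph. Ciart was at 2.14 to 3.16 CPM in wildtype clones and Psph at 30.5 to 46.4 CPM. Clone 3I was the highest of all 12 for Nf1, Ciart, Psph, Gpr141 and Cd82, and 4J was the second highest for Nf1, Ciart and Psph. The 5 genes were picked for likeness to Nf1, so shared high clones are in part fixed by that choice. Ifrd1 was highest in 3H, at 154 CPM.

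**Figure D5:**
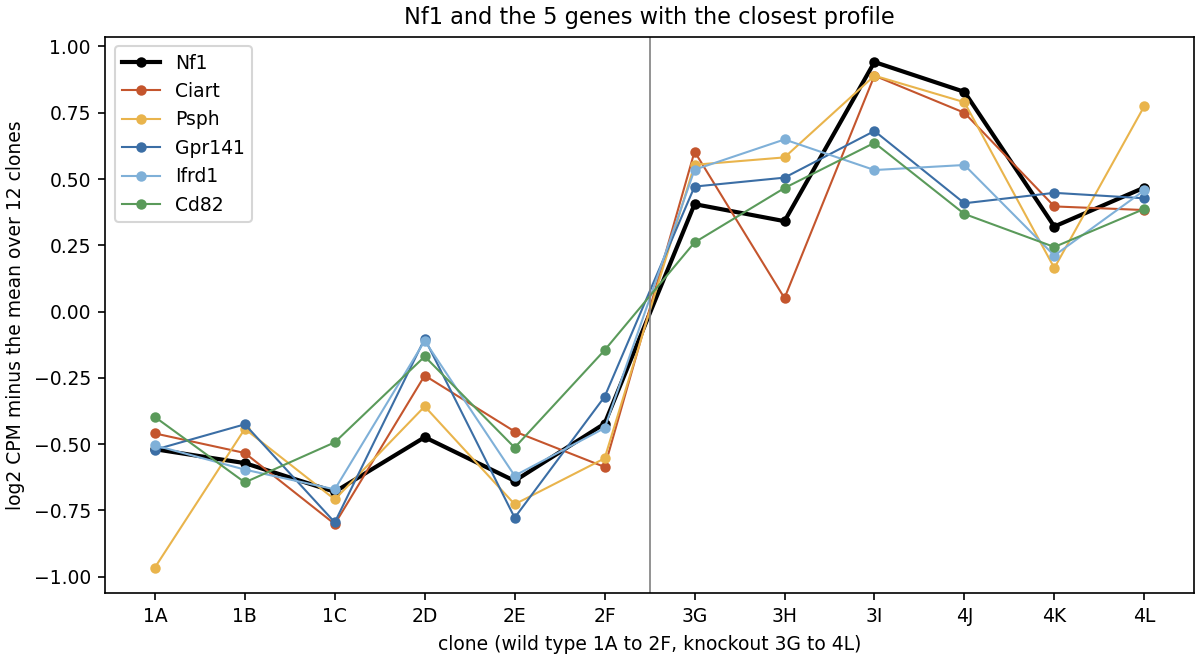
Centred log2 CPM (vertical axis) of Nf1 in black and of the 5 genes with the closest profile, in each clone (horizontal axis), with the genotypes divided by the vertical line. All 6 lines lie below 0 in the 6 wildtype clones and above 0 in the 6 knockout clones, and Nf1, Ciart and Psph are highest in clones 3I and 4J.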

How the data were processed

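RNA of 12 clones, 6 wildtype and 6 Taz knockout, was sequenced. The deposited values are raw counts per Ensembl gene, 1 table per clone, and were used as deposited. STAR, HTSeq, edgeR and build mm9 are named in the submitters' processing notes without versions, and counting ignored strand per the file names. The annotation release is not given in the sources used here. HTSeq's totals that name no gene were left out of library sizes: multiply aligned reads made up 43.6% ± 0.611 (SD, n = 12) of records, reads outside any gene 3.55% ± 0.301 and ambiguous reads 1.59% ± 0.0373. No library pair among 12 was identical. Symbols, chromosomes and exon lengths came from GENCODE M21, which is on a later build than mm9, and 32860 of 37583 identifiers were named. Reads were not recounted with it. Levels per kilobase divide the scaled deposited counts by its exon lengths, and exon overlaps are those of its coordinates. Both may differ from the annotation that was counted. Promoter sequences are RefSeq's (GRCm38.p6, 9 of 9 genes matched).

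Genes were tested by edgeR 4.0.16 (R 4.3.3), quasi-likelihood, on counts of all 12 clones after TMM and filterByExpr by genotype. P-values were adjusted by Benjamini-Hochberg over 11819 genes, and genes were called at an adjusted p under 0.05. Title numbers were compared in a model with 4 groups of 3 clones. SE is the log2 fold change divided by the square root of F. Alternatives were relative log expression and upper-quartile scaling, no filter, DESeq2 1.42.0, limma 3.58.1 voom, counts summed by title number, fits of 1 genotype and leaving out each clone. Total counts set a floor of 3 counts at 0.109 to 0.158 CPM, for counting error only. Where nothing says that clones came from separate embryos, p-values measure the spread between these clones. Centred log2 CPM used a prior count of 2. Correlations within a genotype used exact two-sided permutation tests.

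The 9 genes, the pathway lists and the marker lists were chosen with earlier results of these data known. Named are the 9 genes, in each pathway list up to 4 tested genes with the smallest adjusted p and any called gene, Evi2a, Evi2b and Omg, Taz, and the 5 genes most like Nf1, apart from a few genes that are not reported here. Evi2b and Spry3 were not matched in the count tables and are not analysed here.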

Additional observations from a re-analysis of the deposited data

Results flagged for a closer look

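A clone was set apart where its gap to the nearest other clone of its genotype, divided by the range of the 6, was above Dixon's critical value at the 95% level. Of 78 groups of 6 clones tested over the named genes, 5 were set apart, and chance alone gives about 1 in 20. Hras in wildtype clone 2D was at 65.3 CPM, with the next wildtype clone at 49.1 CPM, and without 2D its log2 fold change turned from -0.03 to 0.05. Clone 2D is also the clone with the most mature neutrophil marker RNA, whose part in the Hras value was not tested. Ifrd1 was at 91.0 CPM in the same clone, with the next wildtype clone at 72.4 CPM. Gpr141 was at 240.6 CPM in knockout clone 3I, with the next at 213 CPM, and Sos2 was at 171 CPM in the same clone, with the next at 148 CPM. Spry2 was at 27.6 CPM in wildtype clone 2E, with the next at 17.3 CPM.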

How the results depend on the processing

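The 9 genes moved by less than the spread between clones in all 162 alternative values, and Nf1 was called in every setting. The 9 genes were chosen with this contrast known, so their calls here are a description and not a test. Spred2 was not called without a filter, with counts summed by title number, or without 1A, 1B, 1C, 2F, 3G, 3H, 3I, 4J or 4K, though its log2 fold change stayed between 0.16 and 0.22. The all-gene counts (472 higher, 466 lower) were 802 and 813 with DESeq2, 158 and 116 with counts summed by title number and 271 and 280 without a filter. They ranged from 294 to 558 higher and from 272 to 535 lower when each clone was left out. Without 1B they were 303 and 305, without 3G 330 and 272, without 3H 340 and 308 and without 3I 294 and 276, and the cause was not tested. Pathway genes called higher (3) were 8 with DESeq2 and 0 to 4 when a clone was left out (0 without 3I, and 1 without 1A, 1B, 1C, 3H or 4K), and those called lower (2) were 3 with DESeq2, 1 with summed counts and 2 to 2 when a clone was left out. Between title numbers, where edgeR called 0, DESeq2 called 5 higher for 2 against 1, and 1 higher and 4 lower for 4 against 3. Leaving out clones gave 0 to 6 lower for 4 against 3 (6 without 4J) and 0 for 2 against 1. Among alternative values of the 40 other named genes, 686 stayed as in the main fit, called or not called, 24 lost a call, 8 gained one and 2 reversed. Most of the 40 genes were not called in the main fit. Rasal2 reversed to -0.076 without 3G (1.06 with it, range -0.076 to 1.30 over left-out clones), and Spred3 to -0.074 without 4K (0.15 with it, range -0.074 to 0.27). No paired analysis was possible because the clone names and numbers of the genotypes share none. Counts summed by title number leave 2 values a genotype.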
